A study of Homo sapiens with 2 samples.

Results

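The cytosolic and mitochondrial chaperones are the proteins outside the endoplasmic reticulum that fold newly made and damaged proteins. The 45 genes studied here were listed by symbol: 10 of the HSP70 and HSP110 family, 3 of the HSP90 family, HSPD1 and HSPE1 of the mitochondrial chaperonin, 8 J-domain proteins, 5 BAG proteins, 7 cochaperones, the 8 subunits of the CCT chaperonin, and the heat shock factors HSF1 and HSF2. A gene was taken as measured when a RefSeq accession of its own stood beside an array probe, which held for 44 of the 45 genes and 82 of the 41000 probes, and each of these 82 probes passed the filter on background for 1 RNA or both in both hybridizations. HSPA1B was the gene without a probe.

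The RNAs came from SKOV3, an established human ovarian adenocarcinoma cell line, and the comparison asks which transcripts differ when the transcription factor RUNX2 is suppressed. cl-sh3 is 1 clone of SKOV3 (clone 3) carrying a RUNX2 short hairpin RNA in the lentiviral pLKO.1-puro vector. The control, called mock-transfected, is 1 clone carrying a scramble sequence in that vector, so that both clones had been infected and selected with puromycin. Both RNAs were hybridized together on 2-colour Agilent whole human genome arrays, once with cl-sh3 in Cy5 (hybridization 1) and once with the dyes reversed (hybridization 2), and since these are 2 hybridizations of the same RNAs they count as 1 replicate and allow no test. All ratios below are log2 ratios of cl-sh3 over control, so that 1 is a 2-fold and 0.58 a 1.5-fold difference, and the spread between the hybridizations measures technical error alone. With 1 clone of each kind, an effect of RUNX2 cannot be told apart from other differences between the clones, nor less RNA per cell from fewer cells of a kind.

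HSP70 proteins bind exposed hydrophobic stretches of a client in a cycle driven by ATP, J-domain proteins bring clients and start the ATP hydrolysis, and BAG and HSP110 proteins release the nucleotide. HSP90 completes the folding of kinases and steroid receptors with the help of cochaperones that load clients or set the pace of its ATPase. CCT in the cytosol and HSP60 with its lid HSP10 in mitochondria enclose a client in a chamber, and the heat shock factor HSF1 drives many of these genes after proteotoxic stress through heat shock elements, repeats of the letters GAA in alternating orientation.

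No chaperone gene was 2-fold different in both hybridizations by its brightest probe, the rule used to represent a gene. Of the 28270 genes measured, 0.12% passed that rule as 2-fold higher and 0.371% as 2-fold lower. At 1.5-fold, 2 of 44 chaperone genes were higher in both hybridizations, HSPA1A and HSPE1, against 1.44% of all genes, and 0 of 44 were lower, against 2.02% of all genes. These counts are 4.55% and 0% of the chaperone genes, and a count of 2 is too small to set the family apart from all genes. With hybridization 1 alone 3 chaperone genes were 1.5-fold higher (2.5% of all genes) and 4 lower (6.31% of all genes), and HSPA1A was 2-fold higher (0.258% of all genes). With hybridization 2 alone 4 were 1.5-fold higher (4.26% of all genes) and 0 lower (3.02% of all genes), so that more of all genes passed with either hybridization alone too. By any probe rather than the brightest, PTGES3 was at least 2-fold lower in both hybridizations, where 0.47% of all genes were, and TCP1 joined it at 1.5-fold, where 2.61% were. The median log2 ratio was -0.06 over the 44 chaperone genes and 0.02 over all genes. Of the 44 genes, 14 were higher in both hybridizations (30.3% of all genes were), 20 were lower in both (25.5% of all genes) and 10 went opposite ways (44.2% of all genes). The chaperone genes were also brighter, with a median log2 intensity of 13.5 against 9.5 over all genes. The part of brightness in these shares was not tested.

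**Figure D1:**
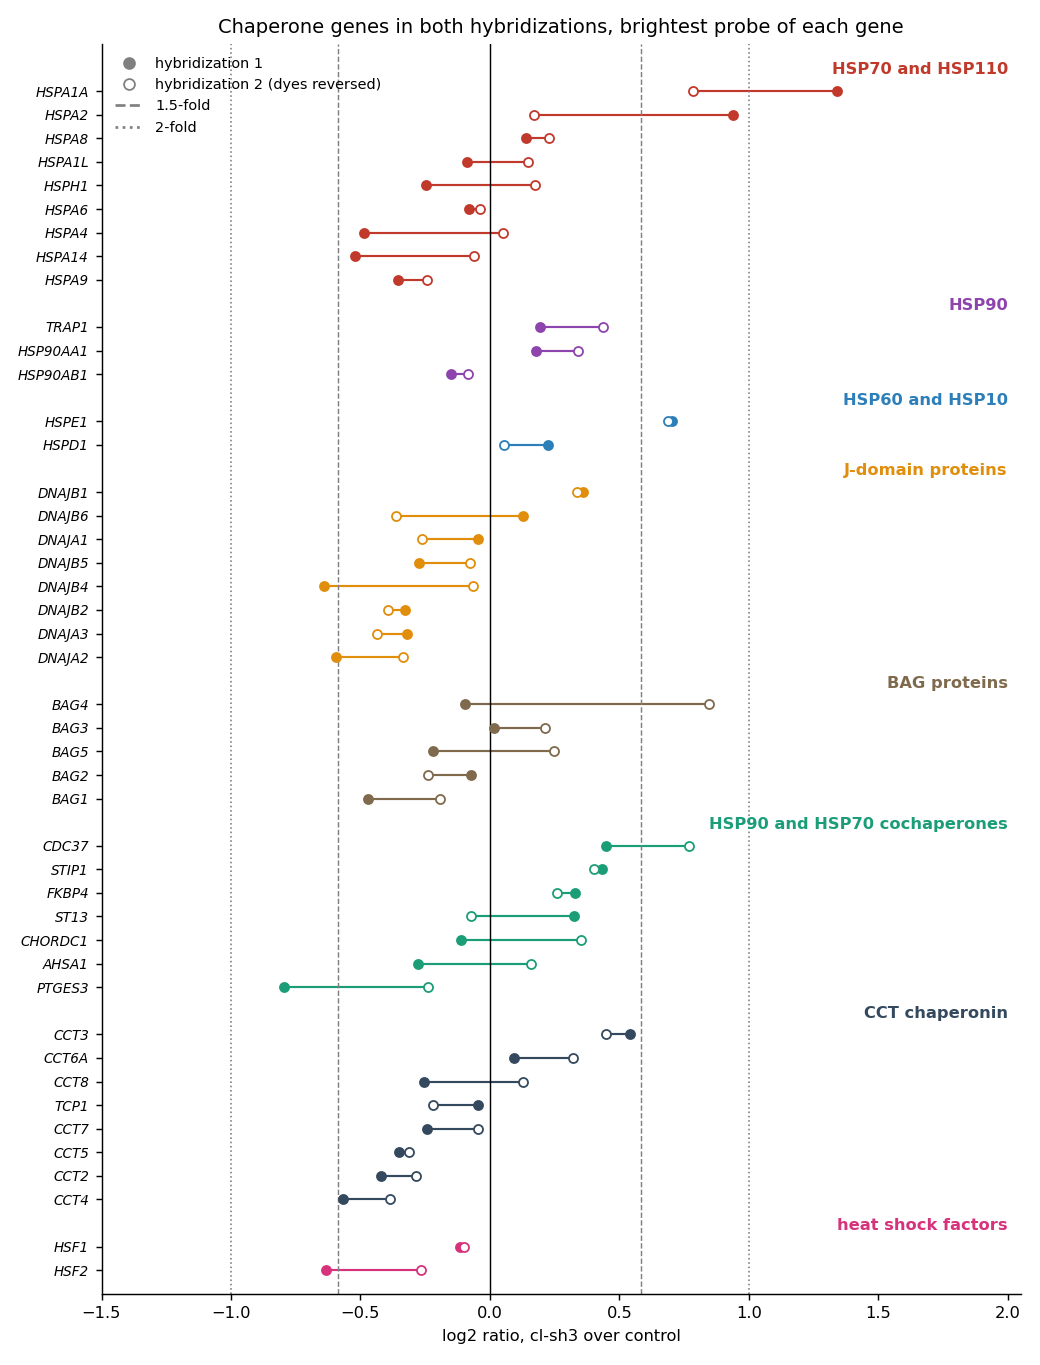
Log2 ratios of cl-sh3 over control (x axis) for the 44 chaperone genes by role (y axis), brightest probe of each gene, with hybridization 1 as filled and hybridization 2 as open points joined by a line. HSPA1A and HSPE1 are the genes with both points to the right of the 1.5-fold line, and no gene has both points to the left of the lower one.

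RUNX2 itself was lower by its brightest probe, with log2 ratios of -2.04 and -1.30. Its other probes did not show this, with 0.17 and -0.13 for one and -0.29 and -0.17 for the other. Between 77.3% and 93.9% of spots were well above background in the 4 channels. All 11 epithelial and ovarian carcinoma markers were well above background in both RNAs and both hybridizations, with mean processed signals of 97.8 to 77101. Their median log2 ratio was 0.34, with 8 of 11 higher and 1 lower in both hybridizations, and their summed signal was 244138 and 190015 in cl-sh3 and 269115 and 164684 in the control in hybridizations 1 and 2. Of 11 markers of other cell types 7 were above background in this way. Over all 11 the mean signals were 24.5 to 862, and the sum was 4019 and 2236 in cl-sh3 and 3364 and 2338 in the control. The part of these signals in the ratios below was not tested. Centring the arrays on their medians without loess moved the 12 brightest chaperone genes, those with a mean log2 intensity over 15, by a median of 0.39 in hybridization 1 and of 0.0038 in hybridization 2, so that small ratios of bright genes in hybridization 1 depend on the normalization.

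The promoters of the genes the results turn on are shown first, because 2 pairs of these genes lie head to head. The sequences are those of RefSeq on GRCh38.p14, read toward the gene named last, and capitals mark heat shock element letters, which are GAANNTTC or TTCNNGAA. The first region, chr6:31815293-31815542 on the plus strand, fills all but the outermost bases of the 259 that separate the starts of HSPA1L and HSPA1A. The second, chr2:197500275-197500378 on the plus strand, is the whole of the 104 bases between the starts of HSPD1 and HSPE1. HSPA8 (chr11:123062137-123062386), DNAJB1 (chr19:14518398-14518647) and PTGES3 (chr12:56688285-56688534), each on the minus strand, are given with the 250 bases before a start. HSPA8 and DNAJB1 stand for heat shock element letters beside small differences, and PTGES3 for the gene with the lowest ratios.
HSPA1L/HSPA1A: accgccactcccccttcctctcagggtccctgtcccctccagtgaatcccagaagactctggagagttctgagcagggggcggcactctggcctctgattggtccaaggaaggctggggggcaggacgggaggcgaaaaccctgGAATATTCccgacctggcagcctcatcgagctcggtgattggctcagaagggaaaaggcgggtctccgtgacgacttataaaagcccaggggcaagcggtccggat
HSPD1/HSPE1: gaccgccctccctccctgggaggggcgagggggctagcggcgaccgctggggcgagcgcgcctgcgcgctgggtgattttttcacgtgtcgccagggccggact
HSPA8: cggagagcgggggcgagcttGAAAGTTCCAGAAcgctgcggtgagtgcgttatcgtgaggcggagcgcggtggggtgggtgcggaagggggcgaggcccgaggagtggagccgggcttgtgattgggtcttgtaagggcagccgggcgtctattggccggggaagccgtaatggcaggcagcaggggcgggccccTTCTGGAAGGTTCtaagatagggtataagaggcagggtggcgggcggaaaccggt
DNAJB1: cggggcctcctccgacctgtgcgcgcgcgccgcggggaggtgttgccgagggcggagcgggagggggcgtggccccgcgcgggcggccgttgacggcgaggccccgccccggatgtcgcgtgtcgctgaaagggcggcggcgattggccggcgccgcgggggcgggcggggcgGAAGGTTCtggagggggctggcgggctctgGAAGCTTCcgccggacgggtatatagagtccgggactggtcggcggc
PTGES3: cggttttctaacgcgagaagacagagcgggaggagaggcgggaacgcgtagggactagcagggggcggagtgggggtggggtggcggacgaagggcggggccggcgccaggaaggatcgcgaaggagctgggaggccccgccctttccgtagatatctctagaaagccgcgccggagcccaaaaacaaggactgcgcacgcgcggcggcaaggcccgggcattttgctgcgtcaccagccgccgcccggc

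HSPA1A encodes the stress-inducible HSP70 of the cytosol. Its brightest probe had normalized intensities of 46875 in cl-sh3 and 18539 in the control in hybridization 1, and of 39586 and 23003 in hybridization 2, which are log2 ratios of 1.34 and 0.78. The ratios of its second probe were 1.14 and 0.74 and those of its dimmest 0.89 and 0.85. All 3 probes were thus past 1.5-fold in both hybridizations, and the mean of the brightest, 1.06, is 2.09-fold. HSPA1B encodes a nearly identical protein, so the probes of HSPA1A may also measure HSPA1B. The share of each was not tested. The 250 bases before the start of HSPA1B were 93.6% identical to those of HSPA1A, which does not bear on what the probes bind.

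HSPA1L, the divergent neighbour of HSPA1A and best known from testis, was at the limit of detection. Its intensities were 184 in cl-sh3 and 196 in the control in hybridization 1, and 180 and 162 in hybridization 2, with log2 ratios of -0.09 and 0.15. The control RNA was well above background in 1 of the 2 hybridizations only, so that a difference was not detectable at this signal. The letters GAATATTC in the shared region lie at positions -106 to -99 from the start of HSPA1A and -161 to -154 from that of HSPA1L. HSPA6, an HSP70 gene that is nearly silent without stress, had log2 ratios of -0.08 and -0.04, and its control RNA too was well above background in 1 hybridization only.

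Among the constitutive HSP70 genes, HSPA8 (HSC70, which also strips clathrin from vesicles) had intensities of 135342 in cl-sh3 and 123060 in the control in hybridization 1, and 131274 and 111987 in hybridization 2. Its log2 ratios were 0.14 and 0.23, and its 4 probes had means between 0.18 and 0.36. These are small differences in the same direction on every probe. Its promoter holds 2 runs of the longer 3-unit heat shock element, printed above. HSPA2, abundant in testis, had 0.94 and 0.17, a difference between hybridizations of 0.77. The mitochondrial HSP70 gene HSPA9 (mortalin) had -0.35 and -0.24. The HSP110 genes HSPA4 and HSPH1, which exchange the nucleotide of HSP70, went opposite ways in the hybridizations by their brightest probes. The dimmer HSPA4 probe had -0.18 and -0.03. The means of the 9 genes ran from -0.30 to 1.06 with a median of -0.04.

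HSPE1 and HSPD1 encode the lid (HSP10) and the barrel (HSP60) of the mitochondrial chaperonin and are transcribed in opposite directions from the region printed above. HSPE1, which has 1 probe, had intensities of 137485 in cl-sh3 and 84459 in the control in hybridization 1, and 121747 and 75589 in hybridization 2. Its log2 ratios of 0.70 and 0.69 differed by 0.02, and the mean is 1.62-fold. The brightest probe of HSPD1 had 161734 and 138466, then 131030 and 126283, with log2 ratios of 0.22 and 0.05. Its dimmer probe had -0.48 and -0.72, so the probes of HSPD1 lie on both sides of 0, with a mean of -0.23, while neither reached the ratio of HSPE1. No heat shock element letters stood in the 104 bases between the starts. The window of another HSPD1 start, inside the gene, has the 3-unit form from position -245 to -233 and, overlapping it, from -240 to -228. Pseudogenes are many here, with 28 named after HSPE1 and 22 after HSPD1 in the RefSeq table, and whether their transcripts bind these probes was not tested.

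**Figure D2:**
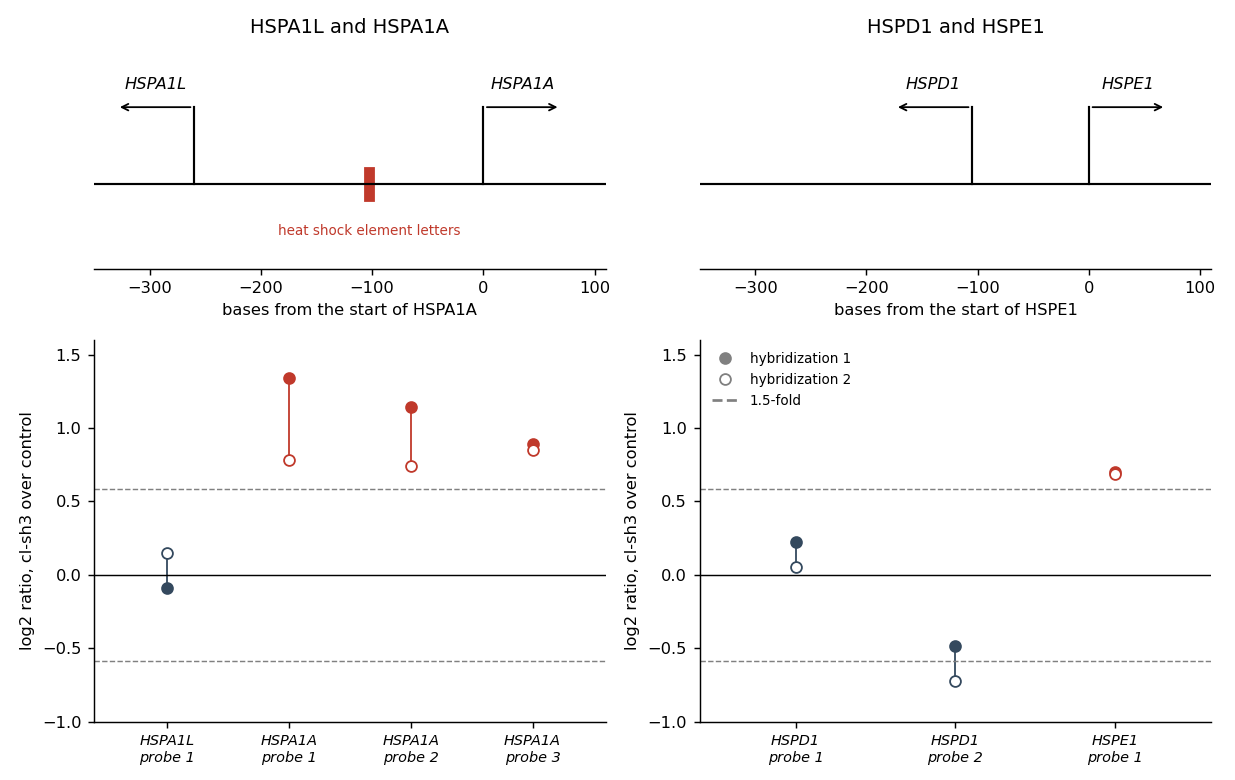
Upper panels map the starts of 2 divergent gene pairs in bases from the start of the right-hand gene, with heat shock element letters in red. Lower panels give the log2 ratio of cl-sh3 over control for each probe (y axis) in hybridization 1 (filled) and 2 (open), with the 1.5-fold lines dashed. All 3 HSPA1A probes and the HSPE1 probe lie above the line, and HSPA1L and HSPD1 do not.

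HSP90 genes differed little and their probes disagreed. The brightest probe of HSP90AA1, the inducible HSP90 of the cytosol, had 0.18 and 0.34, and a probe of the same transcript had -0.53 and -0.39. The 2 probes of the other HSP90AA1 transcript had -0.08 and -0.23, and -0.03 and -0.25. The former of these is printed as 10 spots on each array, which had a mean of -0.08 ± 0.12 in hybridization 1 and -0.23 ± 0.10 in hybridization 2 (SD over 10 spots). The gap between HSP90AA1 probes is therefore several times the error of a spot. HSP90AB1, the constitutive form, had -0.15 and -0.08, and its dimmer probes -0.45 and -0.86, and 0.05 and 0.01. TRAP1, the mitochondrial HSP90, had 0.19 and 0.44. The mean of all probes turned the direction of HSP90AA1 (-0.12).

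The cochaperones held the highest and the lowest ratios outside HSP70 and the chaperonins. CDC37, which loads kinases onto HSP90, had intensities of 3658 in cl-sh3 and 2683 in the control in hybridization 1, and 3535 and 2073 in hybridization 2. Its log2 ratios were 0.45 and 0.77, past 1.5-fold in hybridization 2 only. STIP1 (HOP), which bridges HSP70 and HSP90, had 0.43 and 0.40, and its second probe 0.30 and 0.74. FKBP4, a prolyl isomerase of steroid receptor complexes, had 0.33 and 0.26. ST13, CHORDC1 and the HSP90 activator AHSA1 went opposite ways in the hybridizations. The 8 probes of ST13 had means between -0.36 and 0.13, and 22 pseudogenes bear its name.

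PTGES3, the cochaperone p23 that holds HSP90 in its closed form, was lower on every probe. The brightest had 42113 in cl-sh3 and 73083 in the control in hybridization 1, and 50362 and 59499 in hybridization 2, with log2 ratios of -0.80 and -0.24. The second probe had 6889 and 16765, then 6831 and 15457, with log2 ratios of -1.28 and -1.18. The others had -1.71 and -1.25, and -1.26 and -1.32. Of the 82 chaperone probes these 3 were the ones at least 2-fold different in both hybridizations (3.66% of them, where 0.394% of all probes were 2-fold lower and 0.122% higher), and they belong to 1 gene and are not independent. All 4 probes carry the same accession, and the mean over them is -1.13. Its promoter holds neither heat shock element letters nor the RUNX letters TGTGGT and TGCGGT.

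**Figure D3:**
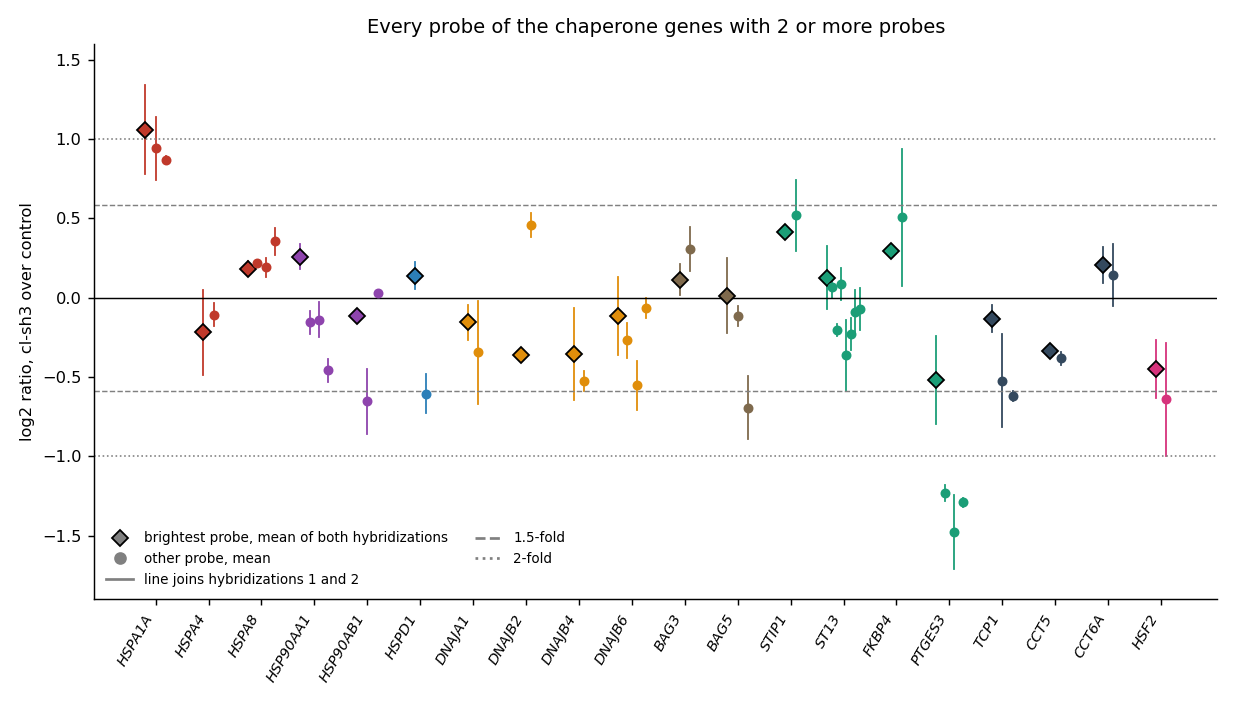
Log2 ratio of cl-sh3 over control (y axis) of every probe of the 20 chaperone genes with 2 or more probes, with the mean of both hybridizations as a point, the brightest probe as a diamond and a line joining the hybridizations. The 3 dimmer PTGES3 probes lie below the 2-fold line, and the probes of HSP90AA1, HSP90AB1, HSPD1, DNAJB2, BAG5 and ST13 lie on both sides of 0.

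CCT is built of 8 different subunits in equal number that fold actin and tubulin among others. The brightest probes of its subunits did not move together. CCT2, CCT3, CCT4, CCT7 and CCT8 have 1 probe each, and probe means of a single gene differed by up to 0.96 (PTGES3). Differences between subunits therefore cannot be told apart from differences between probes. CCT3 was the highest, with intensities of 27331 in cl-sh3 and 18808 in the control, then 29841 and 21900, and log2 ratios of 0.54 and 0.45. CCT6A had 0.09 and 0.32. CCT4 was the lowest, with intensities of 111876 and 165856, then 98612 and 128865, and log2 ratios of -0.57 and -0.39. CCT2 (-0.42 and -0.29) and CCT5 (-0.35 and -0.31) were near it. CCT7 had -0.24 and -0.05, and CCT8 -0.25 and 0.13. The brightest probe of TCP1, the subunit that gave the complex its name, had -0.05 and -0.22, but its dimmer probes had -0.82 and -0.23, and -0.59 and -0.65. Each value of CCT3 lay above each value of CCT2, CCT4 and CCT5 in both hybridizations. No setting changed the direction of these 4, but the settings reprocess the same 2 arrays. Changes of the probe rule could not alter CCT2, CCT3 and CCT4, which have 1 probe each. Kept directions are thus no evidence for a difference between subunits. The median over the subunits, -0.14, became 0.05 with median centring, under which TCP1, CCT7 and CCT8 changed sign.

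Of the 8 J-domain genes, 6 were lower in both hybridizations (25.5% of all genes were), 1 was higher (30.3%) and 1 went opposite ways (44.2%), with a median of -0.26 that stayed between -0.30 and -0.19 under the alternatives. None was past 1.5-fold in both. DNAJB1 (HSP40), the heat-inducible partner of HSP70, was the exception with 0.36 and 0.34. DNAJA2 had -0.59 and -0.34, and the mitochondrial DNAJA3 had -0.32 and -0.44. The probes of DNAJB2 stand for different transcripts, with -0.33 and -0.39 for the brighter and 0.38 and 0.53 for the dimmer.

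BAG proteins had means between -0.33 (BAG1) and 0.38 (BAG4). BAG3, the member known to be induced by stress, had 0.02 and 0.21. BAG4 had -0.09 and 0.85, the widest gap between hybridizations of the 44 genes (0.94), and its control RNA was well above background in 1 hybridization only. By the log ratio of the scanner software the mean of BAG4 was 1.18 in place of 0.38. The dimmest of the 3 BAG5 probes had -0.89 and -0.49 where the brightest had -0.22 and 0.25. The factor HSF1 had intensities of 31950 in cl-sh3 and 34633 in the control, then 33042 and 35415, with log2 ratios of -0.12 and -0.10. HSF2, which can bind DNA together with HSF1, had -0.63 and -0.27, and its dimmer probe a mean of -0.64. Both factors were lower in both hybridizations, though HSF1 turned to 0.04 with median centring.

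**Figure D4:**
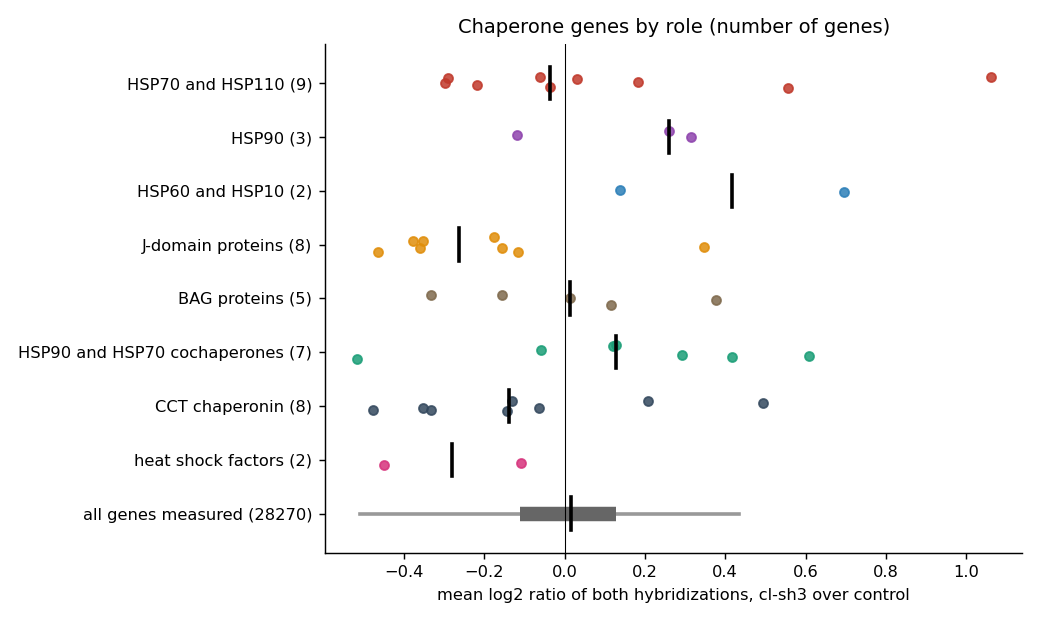
Mean log2 ratio of both hybridizations (x axis) for the chaperone genes of each role (y axis, number of genes in brackets), with black bars for medians. The lowest row gives all 28270 genes measured, the thick bar from the 25th to the 75th percentile (-0.11 to 0.13) and the thin line from the 5th to the 95th (-0.51 to 0.43).

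Of the 44 genes, 16 are in a list of heat-inducible targets of HSF1. The split by this list was chosen after seeing the data. Of these 16 genes, 9 were higher in both hybridizations, 4 were lower and 3 went opposite ways, with a median of 0.13. Of the other 28 genes, 5 were higher, 16 were lower and 7 went opposite ways, with a median of -0.15. Over all genes 30.3% were higher, 25.5% lower and 44.2% of opposite direction. The medians kept their signs under every alternative, ranging from 0.04 to 0.26 for the heat-inducible genes and from -0.25 to -0.05 for the others. The alternatives reprocess the same 2 arrays from which the split was chosen, so kept signs are no evidence for it. The value of 0.04 came with the mean of all probes, by which HSP90AA1 turned to -0.12 and HSPD1 to -0.23. Of the 5 mitochondrial genes, TRAP1, HSPD1 and HSPE1 were higher and HSPA9 and DNAJA3 lower in both hybridizations by their brightest probes, with the other HSPD1 probe lower.

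Heat shock element letters, searched on both strands from 250 bases before to 50 after each start, stood in 20 of the 52 windows of the chaperone genes (38.5%) and in 13.5% of all 35116 windows. They were found in 19 of the 39 chaperone genes with a window (48.7%, against 16.2% of all genes with a window). HSPA1L and HSPA1A count separately there, though their windows overlap by 241 bases and hold the same letters GAATATTC. HSPA1B, the gene without a probe, is counted too. It holds the same letters, in upstream bases 93.6% identical to those of HSPA1A. The 3-unit form, in which a short form is followed after any 2 bases by another GAA or TTC in turn, so that it contains both short forms, stood in 8 windows (15.4%, against 0.49% of all), those of HSPA6, HSPA8, HSP90AA1, HSP90AB1, HSPD1, DNAJA1, DNAJB6 and CHORDC1. The RUNX letters TGTGGT or TGCGGT stood in 14 windows (26.9%, against 19.6% of all), including those of CCT2, CCT3, CCT4 and CCT5, of which CCT3 was higher and the others lower. The ATF4 letters TGATGNAA stood in 0 of the 52 windows (3.62% of all). A match of letters is a description and not a bound site.

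**Figure D5:**
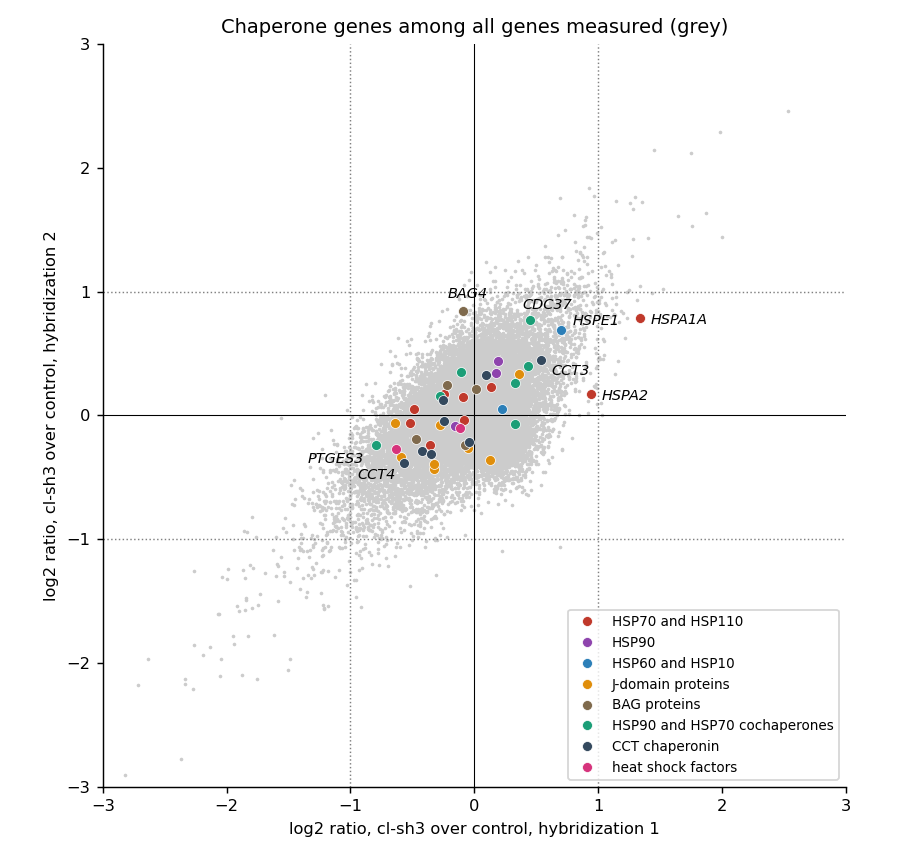
Log2 ratio of cl-sh3 over control in hybridization 1 (x axis) and hybridization 2 (y axis) for all genes measured (grey; 1 gene lies outside the axes) and the 44 chaperone genes coloured by role, with 2-fold lines dotted. HSPA1A is 2-fold higher in hybridization 1 alone, and no coloured point is past 2-fold in both.

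Related folding genes outside the 45 were counted by the same rule. Of 77 other cytosolic and mitochondrial chaperone and cochaperone genes measured, 1 was at least 2-fold higher in both hybridizations (0.12% of all genes) and 0 lower (0.371% of all genes), with a median of 0.02. At 1.5-fold 1 was higher and 3 were lower, where 1.44% and 2.02% of all genes were. That gene was DNAJC7, a J-domain protein that binds both HSP70 and HSP90, with intensities of 7916 in cl-sh3 and 3598 in the control, then 9520 and 3559, and log2 ratios of 1.14 and 1.42. DNAJC7 has 1 probe and was named because it passed 2-fold among the 77 genes. The highest mean of the 8 J-domain genes above was 0.35, and that selection leaves the gap without weight. Of 9 prefoldin subunits, which hand actin and tubulin to CCT, 1 was at least 2-fold higher, with a median of -0.12, and of 8 small heat shock proteins 1, with a median of 0.18. The HSP70 of the endoplasmic reticulum, HSPA5, had -1.04 and -0.98 by its brightest probe but 0.01 and -0.31 by the other, beside 1.34 and 0.78 for HSPA1A in the cytosol.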

How the data were processed

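Total RNA of 1 knockdown and 1 control clone was compared in 2 hybridizations with reversed dyes on 1 slide. The authors deposited the scanner output of each array, with spot intensity in both channels and a log10 ratio, and a table of log10 ratios, which differed from those of the scanner output by at most 0.0057 on the log2 scale. The file headers name Feature Extraction 10.5.1.1, while the submitters' processing notes name 8.5.1.1. The deposited median intensity and its local background were corrected with normexp (offset 50) and normalized within each array by loess with limma 3.58.1 in R 4.3.3, after removal of 1639 control spots and of 153 and 144 flagged spots. No spot was saturated. Channel intensities were scaled between arrays by Aquantile, which leaves ratios as they were. Ratios were turned to cl-sh3 over control from the dyes in the labels. A probe was kept when at least 50% of its spots were well above background for 1 RNA in both hybridizations, which held for 36065 of 41000 probes. That flag was set on 0% to 1.96% of the 153 negative control spots of a channel.

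The accessions of the array were named through RefSeq on GRCh38.p14, which named 18023 of 32890, and the RUNX2 accession missing from it through the gene table of the study. Coordinates of array probes are not used here. Each gene was represented by its brightest kept probe. All 45 genes could be named. Values of both hybridizations are given for genes past 1.5-fold in both by any probe and for genes near background. They are also given for HSPA1A, HSPA8, HSP90AA1, HSP90AB1, HSPD1, HSPE1, HSF1, HSF2 and the CCT subunits. Values for others are given where they mark the range of their role group, and for some further genes whose choice followed no rule. The genes outside the 45 were RUNX2, HSPA5 and listed genes 2-fold different in both hybridizations. Precision is limited by having 2 arrays, and no test was made. The normalization was tested on simulated data with the same dye trend on both arrays. The planted changes were larger than the mean of any chaperone gene by its brightest probe. That run therefore does not bear on small ratios of bright genes. Alternatives changed the background correction, the normalization, the filters, the probe rule and the hybridizations used. The members and lists were chosen with earlier results of these data known. Protein sequences are not analysed here.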

Additional observations from a re-analysis of the deposited data

How the results depend on the processing

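The counts at 2-fold and 1.5-fold and the median log2 ratio were recomputed under each alternative. The number of chaperone genes at least 2-fold higher was 0 by the rule used and 1 (HSPA1A) when the mean of both hybridizations was used, and 0 to 1 with either hybridization alone. The number at least 2-fold lower was 0 and became 1 (PTGES3) by any probe of a gene, an alternative chosen after seeing the data, and was 0 with either hybridization alone. The number at least 1.5-fold higher was 2, and 3 to 4 with either hybridization alone, hybridization 2 adding CDC37 and BAG4 (4.26% of all genes passed) and hybridization 1 adding HSPA2 (2.5% of all genes passed). By the mean of both hybridizations that number was 3, with CDC37 added, where 2.34% of all genes passed. The number at least 1.5-fold lower was 0, became 1 (PTGES3) with the mean of all probes and 2 (PTGES3 and TCP1) by any probe, and was 0 to 4 with either hybridization alone, where hybridization 1 alone called DNAJA2, DNAJB4, HSF2 and PTGES3 and 6.31% of all genes, against 2.02% by the rule used. The median log2 ratio of -0.06 became 0.035 with median centring and -0.12 with the mean of all probes. It was -0.11 over the genes with both RNAs well above background, and ran from -0.10 to 0.01 with either hybridization alone. HSPA1A and HSPE1 were called at 1.5-fold under every alternative run. HSPE1 has 1 probe, so the alternatives to the probe rule could not change its call. Median centring changed the sign of 7 of the 44 genes, none with a mean beyond 0.14 in size, and the mean of all probes that of 5. The cause of these changes was not tested. The 10 genes of opposite direction in the hybridizations are the ones whose sign depends on which is used. No paired analysis was possible because both hybridizations hold the same pair of RNAs. The signal over background limits HSPA1L, HSPA6 and BAG4, whose mean of 0.38 became 1.18 by the log ratio of the scanner software and by the deposited table.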
